A study of Mus musculus with 24 samples.

Results

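The 10 genes described here are Atf4 and 9 genes that respond to it or make amino acids and folate intermediates, namely Ddit3, Trib3, Chac1, Sesn2, Asns, Phgdh, Psat1, Shmt2 and Mthfd2. They were chosen by name from 34519 genes listed for both cultured cells and tumors, with earlier results of these libraries in view. A low Asns level in D2.1 BALB/c tumors was among those results. The measurements are bulk RNA-seq read counts from 24 libraries in 6 groups.

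The D2A1 and D2.1 lines are mouse mammary tumor lines derived from D2 hyperplastic alveolar nodules of BALB/c mice, and they are known for rapid growth (D2A1) and for long dormancy (D2.1). Each was sequenced as parental cells grown in low-glucose medium (3 libraries per line), as mammary fat pad tumors in female mice of the strain labelled Balb/c (4 tumors per line), and as tumors in female mice labelled SCID beige (5 tumors per line). SCID-beige mice lack T and B cells and have defective natural killer (NK) cells, but keep macrophages, neutrophils and stroma, while BALB/c mice have all of these. Each line is a single line, so a difference between them belongs to these lines, and tumor libraries hold host cells beside tumor cells. By the study, the sequenced tumors were collected at a similar size, and D2.1 tumors grew more slowly than D2A1 tumors. Time in the host may therefore differ between the lines, and in tumors it cannot be told apart from line. In a bulk tumor library, fewer cells of a type and less RNA per cell cannot be told apart. The mice were young adults by the study's methods. The labels name no agent given to them and do not say whether replicate cultures were grown separately, so p-values measure the spread between these samples, which in culture may be technical.

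Cells that run short of an amino acid, or whose endoplasmic reticulum is overloaded, phosphorylate the translation factor eIF2. General protein synthesis then slows while translation of Atf4, a transcription factor, rises. Atf4 binds DNA with C/EBP partners and switches on genes for amino acid synthesis and uptake. Because this step acts on translation, the amount of Atf4 mRNA need not follow the amount of Atf4 protein. Phgdh and Psat1 make serine from a glycolytic intermediate, Shmt2 and Mthfd2 pass its carbon to folate inside mitochondria, and Asns makes asparagine. Tumor cells are known to draw on these enzymes for protein and nucleotide synthesis.

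The stretches of sequence below are shown because they hold the core of the element that Atf4 and C/EBP proteins bind, TGATGNAA, in the promoters of genes described below. RefSeq promoter windows on GRCm38.p6, from 250 bases before to 50 bases after the start site, were found for all 10 genes (11 windows, since Psat1 has a pair of start sites). The motif, read on both strands, was in the windows of 3 genes, Asns, Chac1 and Trib3. It was also in 3.97% of all 32851 windows. Capitals mark the motif, which reads as TTNCATCA on the other strand.
Asns, chr6:7693214-7693243, minus strand, motif starting 23 bases before the RefSeq start: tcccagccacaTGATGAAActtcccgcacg
Chac1, chr2:119351038-119351067, plus strand, motif starting 193 bases before the start: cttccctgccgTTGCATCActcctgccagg
Trib3, chr2:152344028-152344057, minus strand, motif starting at base 15 after the start: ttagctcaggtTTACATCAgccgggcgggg
The Asns stretch lies inside the gene as GENCODE draws it, upstream of the RefSeq start. The Trib3 motif lies past the RefSeq start but upstream of the GENCODE start (chr2:152344032). A match to these letters is a description of the sequence, and its absence from the other windows says only that these letters are not there.

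All 10 genes were well measured, with at least 128 reads in any library (Ddit3) and at least 7.88 CPM. CPM are read counts scaled to a common library total, with TMM factors over all 24 libraries. Library totals ran from 13566949 to 24818234 reads. The tumor table lists a second Ddit3 identifier, ENSMUSG00000116429, with 0 reads, so the 10 genes have 11 identifiers there and 10 in the culture table. Levels of different genes were compared as FPKM, which scales counts by gene length and library total. The gene lengths behind FPKM differ between the culture and tumor tables (for Mthfd2, 2085 against 863 bases), so FPKM was read only within a table. The lengths also differ unevenly, at 1893 against 906 bases for Phgdh and 1724 against 1467 for Atf4. The order of genes below therefore depends on the lengths used for the tumors. In D2A1 tumors of BALB/c mice, Phgdh was the most abundant of the 10 at 611 FPKM ± 109 (SD, n = 4), followed by Shmt2 at 198 ± 23.7, Psat1 at 180 ± 11.6 and Atf4 at 162 ± 22.7, and Sesn2 was the least abundant at 7.27 ± 0.653. In D2.1 tumors of the same host the first place passed to Atf4 at 177 ± 37.7 FPKM, with Phgdh at 141 ± 16.2 and Sesn2 again last at 8.53 ± 0.176. The ranges of Atf4 and Phgdh overlapped in the D2.1 tumors, at 140 to 225 against 123 to 162 FPKM.

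Before the comparisons, the libraries were checked for other cell types. Among D2.1 tumors of BALB/c mice, tumor 1 held milk protein transcripts (328 CPM summed over 3 genes, at most 0.928 CPM in any other tumor) and, with tumor 4, skin transcripts (40.1 and 108 CPM over 3 genes, at most 5.1 CPM in any other tumor). Tumor 1 also had the highest sums of skeletal muscle (297 CPM, 3 genes) and adipocyte markers (295 CPM, 4 genes) of all tumors. Among D2.1 SCID-beige tumors, 4 and 5 held muscle transcripts (204 and 170 CPM, against 0.0591 to 14.1 CPM in the other 3). Comparisons are therefore also given without BALB/c tumors 1 and 4, or without SCID-beige tumors 4 and 5, both chosen after seeing the data. Epithelial markers (5 genes) summed to 139 to 363 CPM in cultured D2A1, 2492 to 5086 CPM in cultured D2.1 and 368 to 1197 CPM in tumors, so none of the groups lacked them. T cell markers (Cd3d, Cd3e, Cd3g, Cd4 and Cd8a) summed to 52.1 to 133 CPM in D2.1 and 5.38 to 18.1 CPM in D2A1 tumors of BALB/c mice, against 5.05 to 13 and 0.677 to 2.81 CPM in SCID-beige mice, where Cd3g was at 0 in the D2A1 tumors. NK cell markers (3 genes) summed to 43.5 to 61.2 CPM in D2.1 and 0.299 to 6.14 CPM in D2A1 tumors of BALB/c mice.

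**Figure D1:**
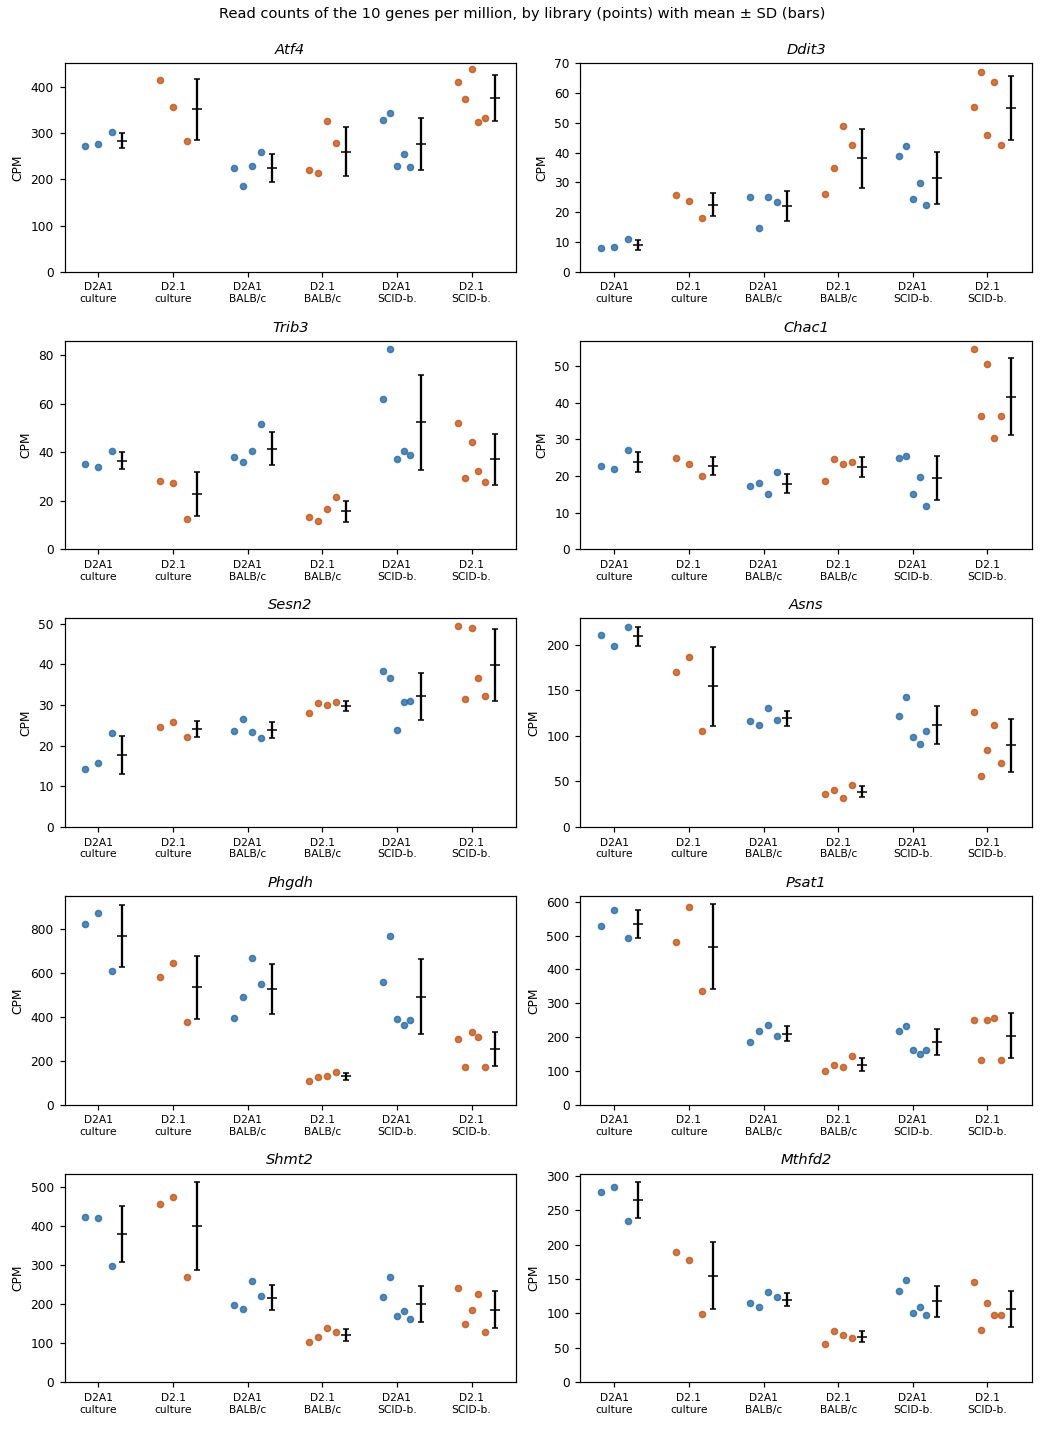
Each panel shows 1 gene, with CPM from 0 on the vertical axis and the 6 groups on the horizontal axis (SCID-b., SCID-beige). Points are libraries (blue D2A1, orange D2.1) and the black bar is the mean ± SD; the 4 D2.1 tumors of BALB/c mice lie lowest for Asns and Phgdh, at 31.9 to 46.2 and 107 to 149 CPM.

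Between the lines in BALB/c mice, the 5 enzymes and Trib3 were lower in D2.1 tumors, while the transcription factors were not. Of the 10 genes, 6 were lower and 1 was higher in D2.1 by edgeR's quasi-likelihood test (Benjamini-Hochberg adjusted p under 0.05 over all genes tested). Over all 14953 genes tested, 15.8% were lower and 16.8% higher. The median log2 fold change (D2.1 over D2A1) was -0.85 for the 10 genes and -0.02 for all genes. The D2.1 tumors compared here are those whose low Asns was known when the genes were chosen, so this comparison is not independent of the choice.

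Asns (asparagine synthetase) was at 36, 41.1, 31.9 and 46.2 CPM in the 4 D2.1 tumors and at 117, 112, 130 and 117 CPM in the 4 D2A1 tumors. No D2.1 tumor came near the D2A1 range, and the means differed 3.10-fold (log2 fold change -1.63 ± 0.16 SE, adjusted p = 3.49e-05). Phgdh (phosphoglycerate dehydrogenase, the first enzyme of serine synthesis) differed most of the 10, at 107, 128, 130 and 149 CPM in D2.1 against 397, 491, 668 and 550 CPM in D2A1. Its level was 4.13-fold lower in D2.1 (log2 fold change -2.05 ± 0.18 SE, adjusted p = 2.23e-05), and again the groups did not overlap.

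Psat1 (phosphoserine aminotransferase, which acts after Phgdh) stood at 99.2, 117, 111 and 144 CPM in D2.1 and at 186, 217.4, 235 and 202 CPM in D2A1. Shmt2 (mitochondrial serine hydroxymethyltransferase) was at 103, 116, 138 and 129 CPM against 199, 187, 261 and 221 CPM. Mthfd2 (mitochondrial methylenetetrahydrofolate dehydrogenase) was at 56, 74.6, 69.2 and 64.6 CPM against 115, 109, 131 and 124 CPM. All 3 were lower in every D2.1 tumor than in any D2A1 tumor, by 1.80-fold for Psat1 and Shmt2 and 1.83-fold for Mthfd2 (adjusted p = 0.00191, 0.00199 and 0.00088).

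Trib3, a pseudokinase that Atf4 induces and that in turn restrains Atf4, was at 13.4, 11.7, 16.5 and 21.4 CPM in D2.1 and 38.2, 36.1, 40.3 and 51.5 CPM in D2A1. It was 2.65-fold lower (log2 fold change -1.41 ± 0.23 SE, adjusted p = 0.00105) with no overlap. Ddit3, which encodes the stress transcription factor CHOP, went the other way, at 26.2, 34.8, 49.1 and 42.5 CPM in D2.1 against 25.3, 14.6, 25 and 23.6 CPM in D2A1 (log2 fold change 0.77 ± 0.24 SE, adjusted p = 0.0338). The lowest D2.1 tumor stood just above the highest D2A1 tumor, and the call was lost without D2.1 tumor 3 or 4 or D2A1 tumor 1, 2 or 4 (adjusted p = 0.0517 to 0.0974). Atf4 itself was at 220, 214.3, 327 and 279 CPM in D2.1 and 225, 185, 229 and 260 CPM in D2A1, with overlapping ranges (log2 fold change 0.20 ± 0.18 SE, adjusted p = 0.42). Chac1, a glutathione-degrading enzyme, and Sesn2, a leucine sensor that holds back mTORC1, had log2 fold changes of 0.31 ± 0.18 and 0.30 ± 0.15 SE and did not pass (adjusted p = 0.213 and 0.154). The ranges of Chac1 overlapped, at 18.6 to 24.7 CPM in D2.1 and 15.1 to 21.2 CPM in D2A1. Those of Sesn2 did not, at 28.1 to 30.7 CPM against 22 to 26.6 CPM.

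Without D2.1 tumors 1 and 4, the same 6 genes were lower (log2 fold change of -1.75 for Asns and -2.08 for Phgdh) and Ddit3 did not pass (adjusted p = 0.0621). Of all genes, 10.2% were lower and 11.1% higher in that fit. Some host and proliferation markers moved with this comparison, and others did not. All 5 T cell and 3 NK cell markers were higher in D2.1, as were 3 of 4 fibroblast markers, whose sum was 4837 to 8215 CPM against 1477 to 2676 CPM in D2A1. Cultured D2.1 cells, free of host cells, also held more of these fibroblast transcripts than cultured D2A1 cells (1965 to 2786 against 82.7 to 106 CPM). The NK cell markers summed to 3.3 to 5.32 CPM in cultured D2.1 and 0 to 0.308 CPM in cultured D2A1 cells. Of them, Klrb1c was called higher in cultured D2.1 cells. Endothelial markers were lower (2 of 3 called, 65.2 to 111 CPM against 167 to 222 CPM), as were 2 of 5 proliferation markers (overlapping sums, 510 to 743 CPM against 611 to 946 CPM). Macrophage sums overlapped as well, at 1492 to 1790 CPM against 1140 to 2206 CPM, with 1 of 5 markers higher. Of 4 adipocyte markers 0 were called, and of 5 epithelial markers 3 were higher and 1 lower. Their part in the enzyme differences was not tested.

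**Figure D2:**
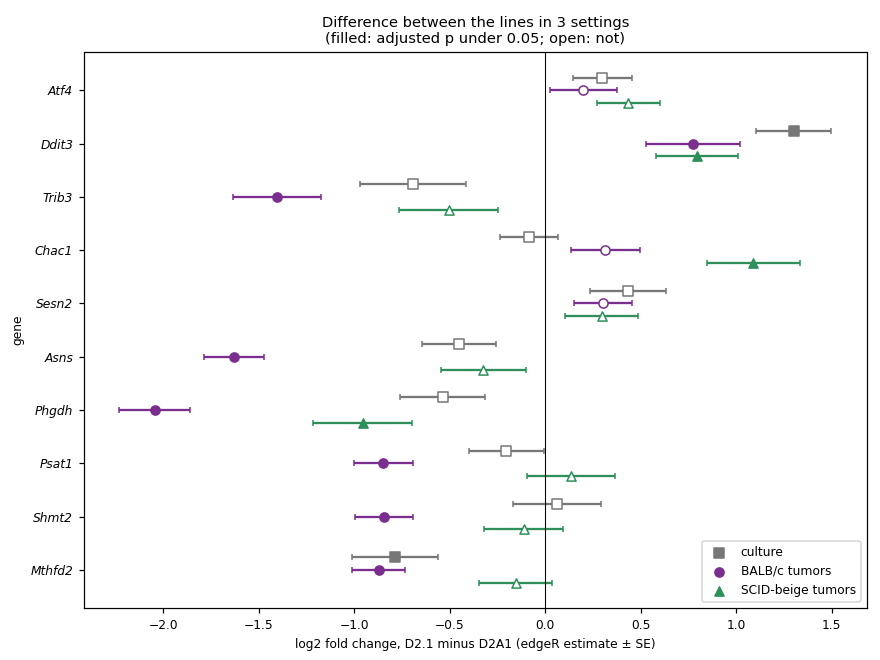
The horizontal axis gives the log2 fold change of D2.1 over D2A1 with its SE for each gene (vertical axis), in culture (squares), BALB/c tumors (circles) and SCID-beige tumors (triangles); filled symbols passed the test. Values of Asns were -0.45, -1.63 and -0.33 and those of Chac1 were -0.08, 0.31 and 1.09 in that order.

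In SCID-beige mice, Chac1 and Ddit3 were higher and Phgdh was lower in D2.1 tumors, and the other 7 genes did not pass. These 2 higher genes and 1 lower gene of 10 compare with 17.2% higher and 14.8% lower among the 14355 genes tested. The median log2 fold change was 0.01 for the 10 genes and 0.02 for all genes. These D2.1 tumors were the other side of the host comparison from which the choice of genes started. The line comparison in SCID-beige mice is thus not independent of that choice either.

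Chac1 was at 54.8, 36.4, 50.5, 30.4 and 36.3 CPM in the 5 D2.1 tumors and at 24.8, 25.4, 15.2, 19.8 and 11.8 CPM in the 5 D2A1 tumors. Every D2.1 tumor was above every D2A1 tumor, by 2.13-fold in the fit (log2 fold change 1.09 ± 0.24 SE, adjusted p = 0.00388). Ddit3 was at 55.3, 67.1, 46, 63.8 and 42.6 CPM in D2.1 and 38.8, 42.1, 24.4, 29.7 and 22.4 CPM in D2A1 (log2 fold change 0.79 ± 0.21 SE, adjusted p = 0.0117), and its groups barely separated.

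Phgdh was at 298, 173, 330, 307 and 172 CPM in D2.1 and 558, 768, 390, 364 and 384 CPM in D2A1. Its groups did not overlap either, and it was 1.94-fold lower in D2.1 (log2 fold change -0.96 ± 0.26 SE, adjusted p = 0.0125). Asns in the same tumors was at 126, 55.6, 84.4, 112 and 69.8 CPM in D2.1 and 121, 142, 99.2, 90.6 and 105 CPM in D2A1. Of the 5 D2.1 tumors, 3 lay below the D2A1 range and 2 within it, and the log2 fold change of -0.33 ± 0.22 SE did not pass (adjusted p = 0.295).

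Psat1, Shmt2 and Mthfd2 also overlapped between the lines, with log2 fold changes of 0.14 ± 0.23, -0.11 ± 0.21 and -0.15 ± 0.19 SE (adjusted p = 0.693, 0.719 and 0.576). Trib3 had a log2 fold change of -0.51 ± 0.26 SE (adjusted p = 0.157), with 2 D2A1 tumors, at 62 and 82.3 CPM, above all others. Atf4 was at 411, 374, 439, 324 and 333 CPM in D2.1 and 328, 344, 228, 256 and 226 CPM in D2A1, and came near the threshold (log2 fold change 0.43 ± 0.17 SE, adjusted p = 0.0597). It passed in 1 fit of all tumors (adjusted p = 0.0424), with limma on log2(FPKM + 1) (adjusted p = 0.0464) and without D2A1 tumor 2 (adjusted p = 0.0348). NK cell markers (3 of 3) were higher here too, at 13.3 to 37.7 CPM in D2.1 against 0.123 to 1.09 CPM, endothelial markers (3 of 3) were lower, at 43.8 to 75.7 CPM against 151 to 222 CPM, and fibroblast markers (3 of 4 higher) stood at 3228 to 6799 CPM against 1084 to 2705 CPM. Their part in these differences was not tested. Without D2.1 tumors 4 and 5, which held muscle transcripts, the same 3 genes passed (log2 fold change 1.27 for Chac1, 0.82 for Ddit3 and -0.89 for Phgdh, adjusted p = 0.00453, 0.0259 and 0.0464). Of all genes, 14.6% were higher and 12.4% lower in that fit.

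Whether the line difference itself differs between the hosts was not tested, because that contrast contains the host comparison in D2.1 tumors from which the choice of genes started.

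In culture, without a host, Ddit3 was higher and Mthfd2 lower in D2.1 cells. These 1 higher and 1 lower of 10 genes stand beside 24.2% higher and 20.7% lower among 12489 genes tested. Ddit3 was at 25.8, 23.7 and 18.2 CPM in D2.1 and 7.88, 8.46 and 10.9 CPM in D2A1, a 2.46-fold difference with no overlap (log2 fold change 1.30 ± 0.20 SE, adjusted p = 0.00083). Mthfd2 was at 189, 178 and 98.7 CPM in D2.1 and 277, 283 and 235 CPM in D2A1 (log2 fold change -0.79 ± 0.22 SE, adjusted p = 0.0205). Its call was lost without D2A1 replicate 1 or 2 (adjusted p = 0.053 and 0.0549).

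The third D2.1 culture stood below the other two for every enzyme. Asns was at 170, 187 and 106 CPM in D2.1 against 210, 198 and 218.7 CPM in D2A1 (log2 fold change -0.45 ± 0.19 SE, adjusted p = 0.0896). Phgdh was at 580.7, 647 and 375 CPM against 825, 874 and 607 CPM (log2 fold change -0.54 ± 0.22 SE, adjusted p = 0.0825), and in both lines replicate 3 was the lowest. With replicate number as a block, Phgdh passed (adjusted p = 0.000146), as did Sesn2, higher in D2.1 with a log2 fold change of 0.46 (adjusted p = 0.0282). Without D2A1 replicate 3, Phgdh and Sesn2 passed as well (adjusted p = 0.0356 and 0.00785), and without D2.1 replicate 3, Atf4 did (log2 fold change 0.43, adjusted p = 0.0277). Trib3 had a log2 fold change of -0.69 ± 0.28 SE (adjusted p = 0.0709), which passed with DESeq2 (adjusted p = 0.0419), and Atf4, Chac1, Psat1 and Shmt2 lay between -0.20 and 0.30 without passing.

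The reads of Ddit3 come with a limit. Its span (chr10:127290774-127296288, plus strand, mm10) shares 68 bases with the end of Mars, a methionyl-tRNA synthetase gene on the other strand, and whether counting used the strand is not given in the sources used here. Mars had log2 fold changes of 0.57 in culture (adjusted p = 0.026), 0.22 in BALB/c mice (adjusted p = 0.23) and 0.60 in SCID-beige mice (adjusted p = 0.00686), and was more abundant than Ddit3. Shmt2 shares 32 bases with Ndufa4l2 in the same way, a gene at 3.56 to 8.19 CPM in the means of the tumor groups.

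Whether the line difference in SCID-beige tumors differs from that in culture was tested by the interaction of line and setting over those 4 groups. This test uses the same D2.1 SCID-beige tumors, so it is not independent of the choice of genes. Chac1 passed, with a difference of the log2 fold changes of 1.19 ± 0.34 SE (adjusted p = 0.0272), and in culture its ranges overlapped between the lines (24.8, 23.2 and 20.1 CPM in D2.1 and 22.7, 22 and 27 CPM in D2A1). That 1 of 10 genes stands beside 4.62% with a higher and 8.18% with a lower difference among 15077 genes tested. The call was lost without D2A1 culture 1 or 3 or D2.1 culture 2 or 3 (adjusted p = 0.0514 to 0.0749, difference 1.09 to 1.23), and it held without D2.1 SCID-beige tumors 4 and 5 (difference 1.38, adjusted p = 0.0139). No other gene of the 10 passed, and the nearest was Mthfd2 with a difference of 0.65 ± 0.31 SE (adjusted p = 0.211). Line differences of markers were lower in SCID-beige tumors than in culture for 3 of 5 epithelial and 3 of 3 endothelial genes. The same held for 2 of 4 fibroblast and 1 of 5 macrophage genes. Their part in the Chac1 result was not tested.

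The host comparisons use the same tumor libraries as the line comparisons. Between the hosts, none of the 10 genes passed in D2A1 tumors by edgeR, where 0.906% of 14572 genes were higher in BALB/c mice and 0.261% lower. At an unadjusted p under 0.05, edgeR had 1 of the 10 (Sesn2) and DESeq2 had 2 (Sesn2 and Ddit3), with 0 called after adjustment by either or by limma. The enzymes had log2 fold changes (BALB/c over SCID-beige) of 0.03 for Mthfd2 to 0.19 for Psat1, and Asns was at 0.09 ± 0.15 SE (adjusted p = 0.938). Ddit3, Sesn2, Trib3, Atf4 and Chac1 ranged from -0.51 to -0.11. T cell markers moved with host, since 3 of the 4 tested in D2A1 were higher in BALB/c mice.

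In D2.1 tumors all 10 genes had lower means in BALB/c than in SCID-beige mice. These values are a description with no test, because Asns in this contrast led to the choice of the genes. The median log2 fold change (BALB/c over SCID-beige) was -0.72 for the 10 genes and -0.01 for all genes. For 6 of the 10 (Trib3, Chac1, Sesn2, Asns, Phgdh and Mthfd2) every BALB/c tumor was below every SCID-beige tumor, a pattern that 1.25% of 14233 genes showed, and nothing is read from that count.

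Trib3 and Asns had the lowest values, with log2 fold changes of -1.21 ± 0.26 and -1.19 ± 0.25 SE, then Phgdh at -0.97 ± 0.23 and Chac1 at -0.86 ± 0.20. Psat1 (-0.77), Mthfd2 (-0.67), Shmt2 (-0.60), Ddit3 (-0.51), Atf4 (-0.50) and Sesn2 (-0.39) followed. For Asns, the highest BALB/c tumor was at 46.2 CPM and the lowest SCID-beige tumor at 55.6 CPM. Without BALB/c tumors 1 and 4 the median over the 10 genes was -0.68, without SCID-beige tumors 4 and 5 it was -0.78, and it ran from -0.83 to -0.60 when single tumors were left out. T cell markers were higher in BALB/c mice here too (4 of 5 called), and the 2 groups' sums are given above; their part in these values was not tested.

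The SD of log2 CPM among D2.1 tumors was larger in SCID-beige than in BALB/c mice for 8 of the 10 genes. In D2A1 tumors it was larger in SCID-beige mice for every one of the genes (for Asns, 0.256 against 0.0923). The wider spread is thus not particular to D2.1. No test of spread was run, and the share over all genes is not given here. Each D2.1 tumor was set beside the D2A1 tumors of its host, as its log2 CPM minus their mean. In BALB/c mice, all 5 enzymes lay below the D2A1 range in each of the 4 D2.1 tumors, with a median difference of -1.09, -0.89, -0.91 and -0.89. In SCID-beige mice, 5 and 4 of the 5 enzymes lay below the range in tumors 2 and 5 (median differences of -0.61 and -0.60), and 1, 2 and 2 in tumors 1, 3 and 4 (0.30, -0.09 and 0.02). Tumors 4 and 5, which both held muscle transcripts, were thus unlike each other in the enzymes, and the part of those transcripts was not tested. The D2A1 range was that of 4 tumors in BALB/c mice and of 5 more widely spread tumors in SCID-beige mice. Lying within it was therefore easier in SCID-beige mice. The share of all genes below these ranges is not given here, so the counts are a description only.

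Phgdh was below the D2A1 range in every D2.1 tumor of either host, at -2.27 to -1.80 in BALB/c and -1.46 to -0.51 in SCID-beige mice. Psat1, which follows it in the pathway, was below the range in the 4 BALB/c tumors (-1.08 to -0.54) and in SCID-beige tumors 2 and 5 (-0.46 and -0.45), and above it in SCID-beige tumors 1, 3 and 4 (0.46, 0.46 and 0.49).

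**Figure D3:**
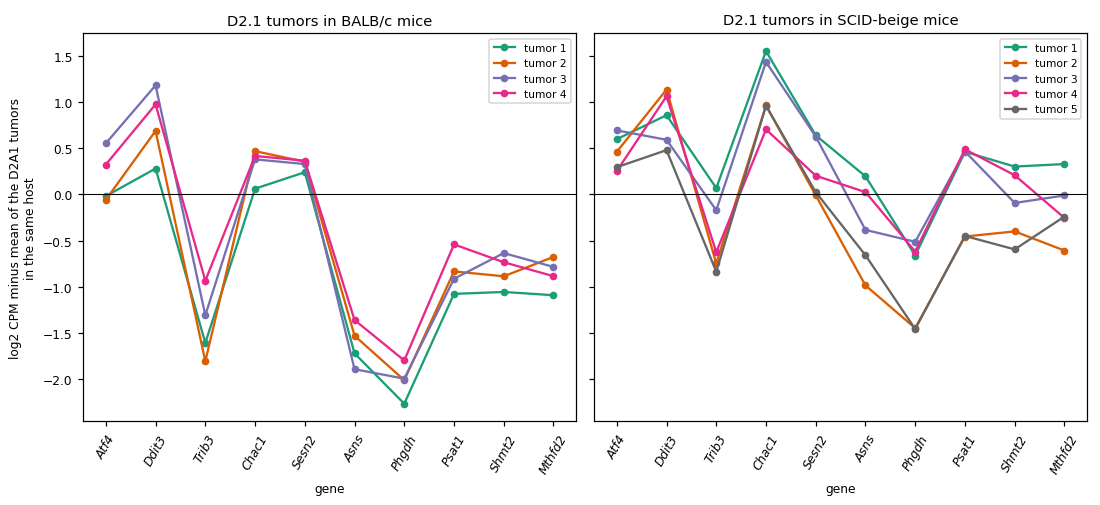
Lines join the 10 genes (horizontal axis) of each D2.1 tumor, with log2 CPM minus the mean of the D2A1 tumors in the same host on the vertical axis, for BALB/c mice (left, 4 tumors) and SCID-beige mice (right, 5 tumors). The BALB/c profiles run close together and drop at Trib3 and the 5 enzymes, while in SCID-beige mice tumors 2 and 5 run below the others from Asns to Shmt2, with Phgdh at -1.45 and -1.46.

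Across the 6 groups, the enzymes and the stress genes had different orders of mean CPM. Asns, Phgdh, Psat1 and Mthfd2 were highest in cultured D2A1 cells (209 ± 10.3, 769 ± 142, 533 ± 41.1 and 265 ± 26.4 CPM, SD, n = 3) and lowest in D2.1 BALB/c tumors (38.8 ± 6.2, 129 ± 16.9, 118 ± 18.9 and 66.1 ± 7.91 CPM, n = 4). Shmt2 was highest in cultured D2.1 cells (401 ± 113 CPM) and lowest in the same tumors (122 ± 15.3 CPM). For these genes the lowest group did not overlap its neighbour, except Shmt2, whose neighbour, D2.1 tumors of SCID-beige mice (186 ± 48.3 CPM), overlapped it. For Psat1 the neighbour was D2A1 tumors of SCID-beige mice. The lowest Psat1 group, up to 144 CPM, did overlap the D2.1 tumors of SCID-beige mice, which went down to 133 CPM. The share of such gaps over all genes is not given here. Among the other neighbours, the cultures of the lines were apart for Asns and Mthfd2, the lower culture stood clear of the next tumor group for Psat1 and Shmt2, and for Phgdh the D2.1 tumors of SCID-beige mice lay below the remaining groups. The D2A1 tumors of both hosts overlapped for all 5 enzymes.

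Atf4, Ddit3, Chac1 and Sesn2 were instead highest in D2.1 tumors of SCID-beige mice (376 ± 49.5, 55 ± 10.7, 41.7 ± 10.4 and 39.8 ± 8.88 CPM, n = 5). Of these, Chac1 alone was clear of the next group, cultured D2A1 cells at 23.9 ± 2.74 CPM. Ddit3 and Sesn2 were lowest in cultured D2A1 cells (9.08 ± 1.6 and 17.7 ± 4.75 CPM), Atf4 and Chac1 in D2A1 tumors of BALB/c mice (225 ± 30.7 and 18 ± 2.52 CPM). For Atf4, each group in the order overlapped the next. Trib3 was highest in D2A1 tumors of SCID-beige mice (52.2 ± 19.6 CPM) and lowest in D2.1 BALB/c tumors (15.8 ± 4.29 CPM), with a gap in its order between cultured D2A1 and cultured D2.1 cells. Culture and tumor libraries differ in processing and in host cells, and that part of the order was not tested. The highest and the lowest group of all 10 genes were the same without D2.1 BALB/c tumors 1 and 4, and without D2.1 SCID-beige tumors 4 and 5.

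How the genes vary from tumor to tumor was described by the correlation of their deviations from group means in log2 CPM over the 18 tumors. The tumors share depth, TMM scaling and host content within a library, so r is given without a p. Over the 45 pairs, the median Pearson r was 0.68 (Spearman 0.66), from 0.16 for Ddit3 with Sesn2 to 0.93 for Phgdh with Psat1. Within the 5 enzymes all 10 pairs were at 0.70 or above. Atf4 went with Trib3 (0.84), Ddit3 (0.72) and Chac1 (0.71), and least with Asns (0.22). With the other enzymes it was at 0.42 (Psat1) to 0.63 (Shmt2), and with Sesn2 at 0.50. Atf4 with Asns was at 0.73 over the D2A1 tumors alone and at -0.04 over the D2.1 tumors alone. The median over the 45 pairs was 0.68 without D2.1 BALB/c tumors 1 and 4 and 0.70 without D2.1 SCID-beige tumors 4 and 5.

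Over the 9 D2A1 tumors alone, Atf4 with the 5 enzymes had a median r of 0.74, and over the 9 D2.1 tumors 0.34 (0.25 without BALB/c tumors 1 and 4, and 0.39 without SCID-beige tumors 4 and 5). The enzymes among themselves were at 0.91 and 0.77. Ranked by likeness to Asns among 10804 protein-coding genes with a mean of at least 5 CPM, Psat1 came first (0.87), then Psmd2 (0.85, a proteasome subunit), Ahcy (0.82, which clears S-adenosylhomocysteine), Odc1 (0.81, ornithine decarboxylase) and Eif3b (0.81, a translation initiation factor subunit). Phgdh, Shmt2 and Mthfd2 were at ranks 15, 17 and 39, and Atf4 at rank 2829.

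**Figure D4:**
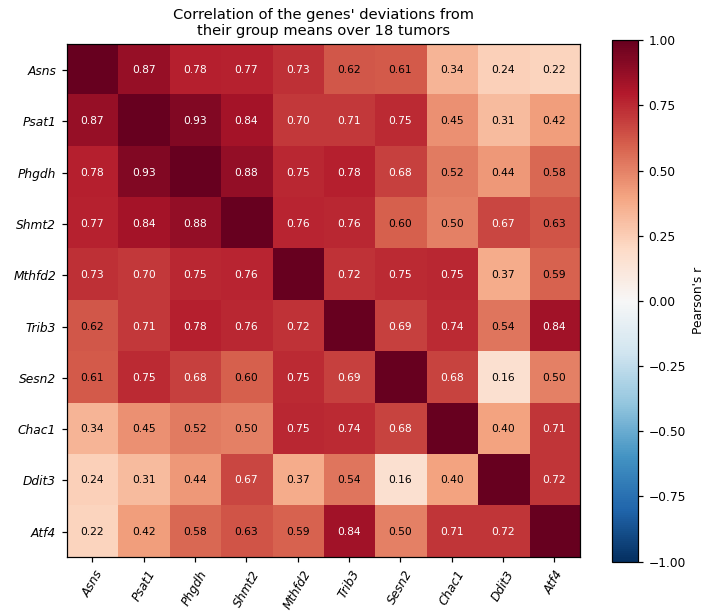
Cells give Pearson's r between the genes on both axes, over 18 tumors, of deviations in log2 CPM from the group mean (color from -1 to 1). The 5 enzymes at the upper left are at 0.70 to 0.93 with each other, and the row of Atf4 runs from 0.22 with Asns to 0.84 with Trib3.

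The lists that follow are described by their counts and medians, were not tested as lists, and share libraries with the 10 genes. Of 17 other genes known as Atf4 targets, 16 were tested in each comparison, and 3 were higher and 5 lower in D2.1 BALB/c tumors (median log2 fold change 0.10, against 16.8% higher and 15.8% lower over all genes). Without D2.1 BALB/c tumors 1 and 4, 3 were higher and 2 lower, with 11.1% and 10.2% of all genes. Herpud1, which acts in the degradation of misfolded proteins, was at 317 ± 14 CPM in D2.1 and 129 ± 13 CPM in D2A1 (log2 fold change 1.28 ± 0.12 SE, adjusted p = 3.5e-05), and Stc2, a secreted glycoprotein, was higher by 1.38 ± 0.26 SE (adjusted p = 0.0026). Cth, which makes cysteine, was at 1.16 ± 0.372 against 11.6 ± 2.42 CPM (log2 fold change -3.33 ± 0.34 SE, adjusted p = 4.8e-05), and Eif4ebp1, a brake on translation, was lower by a log2 fold change of -1.34 ± 0.22 SE (adjusted p = 0.0012).

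In SCID-beige mice 7 of these targets were higher and 1 lower (median 0.48, against 17.2% and 14.8% of all genes), with Herpud1 (1.61 ± 0.15 SE, adjusted p = 3.7e-06) and Nupr1, a stress-induced chromatin protein (1.39 ± 0.27 SE, adjusted p = 0.0014), at the top and Cebpb, a C/EBP partner of Atf4, lower (-0.90 ± 0.24 SE, adjusted p = 0.012). Without D2.1 tumors 4 and 5, 6 were higher and 1 lower, and Cebpb did not pass (adjusted p = 0.0864). Of all genes, 14.6% were higher and 12.4% lower in that fit. In culture 4 were higher and 6 lower (median 0.13, against 24.2% and 20.7% of all genes), from Nupr1 at 3.84 ± 0.23 SE and Ddit4, an mTORC1 inhibitor, at 3.27 ± 0.18 SE to Stc2 at -2.18 ± 0.39 SE and Atf5, a paralog of Atf4, at -0.81 ± 0.19 SE. Stc2 was lower in cultured D2.1 cells and higher in D2.1 BALB/c tumors. Between SCID-beige tumors and culture, the line difference of 4 targets was higher and that of 3 lower (4.62% and 8.18% of all genes), with Stc2 at 3.39 and Gpt2, an alanine aminotransferase, at 1.65, and Ddit4 at -2.53 and Nupr1 at -2.43.

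Of 12 other serine, glycine, proline and folate enzymes, 6 were lower and 1 higher in D2.1 in BALB/c mice (median log2 fold change -1.01), where 15.8% of all genes were lower and 16.8% higher. Those counts were the same without D2.1 tumors 1 and 4, where 10.2% of all genes were lower and 11.1% higher. Mthfd1, the cytosolic folate enzyme, was at 40.5 ± 4.48 against 98.9 ± 8 CPM (-1.30 ± 0.14 SE, adjusted p = 8.7e-05), and Aldh1l1, which removes folate-bound carbon, was lower by -1.53 ± 0.53 SE (adjusted p = 0.0492), and by -2.89 ± 0.36 SE without those tumors (adjusted p = 0.000981). Mthfd2l, a paralog of Mthfd2, was higher in D2.1, at 64.8 ± 16.3 against 23.4 ± 1.48 CPM (1.45 ± 0.18 SE, adjusted p = 0.0002). In SCID-beige mice 4 were lower and 1 higher (median -0.37, against 14.8% and 17.2%). The counts were the same without D2.1 tumors 4 and 5, where 12.4% of all genes were lower and 14.6% higher. With all tumors, Aldh1l1 was at -2.86 ± 0.37 SE, Gcsh, of the glycine cleavage system, at -1.04 ± 0.20 SE and Mthfd2l at 1.89 ± 0.22 SE. In culture 4 of 11 were lower and 2 higher (median -0.36, against 20.7% and 24.2%), with Shmt1, the cytosolic counterpart of Shmt2, at -1.22 ± 0.24 SE and Pycr1, of proline synthesis, at -0.88 ± 0.27 SE, and Aldh1l1 and Mthfd2l at 3.05 ± 0.43 and 1.17 ± 0.21 SE. Mthfd2l was higher in D2.1 in all 3 settings, opposite to Mthfd2 where Mthfd2 passed. Aldh1l1 and Gldc, of the glycine cleavage system, had lower line differences in SCID-beige tumors than in culture, Aldh1l1 by -5.90 ± 0.65 SE.

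Among amino acid transporters, Slc38a1, a glutamine carrier, was higher in D2.1 in culture (258 ± 23.9 against 11.3 ± 1.95 CPM, adjusted p = 6.3e-07), in BALB/c tumors (39.1 ± 8.81 against 12.4 ± 2.01 CPM, adjusted p = 0.00027) and in SCID-beige tumors (59.7 ± 31.9 against 10 ± 1.97 CPM, adjusted p = 9.2e-05). Slc7a5, a carrier of large neutral amino acids, was lower in D2.1 tumors of both hosts, at 72.2 ± 13.8 against 171 ± 15 CPM (adjusted p = 0.00025) and at 118 ± 45 against 196 ± 39.5 CPM (adjusted p = 0.025, or 0.128 without SCID-beige tumors 4 and 5). Slc7a11, the cystine carrier, was higher in D2.1 in culture (1.14 ± 0.29 SE, adjusted p = 0.0127) and lower in BALB/c tumors (-1.45 ± 0.38 SE, adjusted p = 0.0144, or 0.0645 without D2.1 tumors 1 and 4). In all, 4 were higher and 1 lower of 9 tested in culture, 2 and 3 of 10 in BALB/c mice, and 2 and 2 of 10 in SCID-beige mice, with 1 in each direction in the interaction. The shares of all genes higher and lower were 24.2% and 20.7% in culture, 16.8% and 15.8% in BALB/c mice and 17.2% and 14.8% in SCID-beige mice. In the interaction, 4.62% of all genes were higher and 8.18% lower. Without BALB/c tumors 1 and 4 the counts were 1 and 2, and without SCID-beige tumors 4 and 5 they were 2 and 1. Of all genes, 11.1% and 10.2% passed without those BALB/c tumors, and 14.6% and 12.4% without those SCID-beige tumors.

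Upstream of Atf4, of 11 genes of eIF2, its exchange factor eIF2B, the eIF2 kinases and an eIF2 phosphatase subunit, 4 were lower in each setting (Eif2s1, Eif2b3 and Eif2b5 in all 3), with 0, 1 and 2 higher in culture, BALB/c and SCID-beige mice. Among all genes 20.7%, 15.8% and 14.8% were lower and 24.2%, 16.8% and 17.2% higher. Without BALB/c tumors 1 and 4 there were 3 lower, and without SCID-beige tumors 4 and 5 there were 4. Of all genes, 10.2% and 12.4% were lower in those fits. Eif2s1, the eIF2 subunit that is phosphorylated, was at 252 ± 67.8 against 394 ± 54.9 CPM in culture (adjusted p = 0.031), 68.5 ± 6.18 against 182 ± 8.32 CPM in BALB/c mice (log2 fold change -1.42 ± 0.13 SE, adjusted p = 2e-05) and 88 ± 20.5 against 172 ± 28.8 CPM in SCID-beige mice (-0.97 ± 0.18 SE, adjusted p = 0.0011). Among the eIF2 kinases, Eif2ak1 (HRI) was higher in D2.1 tumors of both hosts (0.61 ± 0.14 and 0.43 ± 0.14 SE, the latter lost without tumors 4 and 5, adjusted p = 0.0508), and Eif2ak3 (PERK) in SCID-beige mice (1.08 ± 0.31 SE, adjusted p = 0.0158). Of 14 genes of the Atf6 and Xbp1 arms of the unfolded protein response, 6 were lower and 0 higher in D2.1 BALB/c tumors (median -0.48), 1 lower and 4 higher in SCID-beige mice (median 0.03), and 3 lower and 4 higher in culture (median 0.29). Among all genes, 15.8% were lower and 16.8% higher in BALB/c mice, 14.8% and 17.2% in SCID-beige mice, and 20.7% and 24.2% in culture. Without BALB/c tumors 1 and 4 there were 5 lower (10.2% of all genes, with 11.1% higher). Without SCID-beige tumors 4 and 5 there were 1 lower and 1 higher (12.4% and 14.6% of all genes). Atf6, the sensor itself, was lower in all 3, by log2 fold changes of -1.05 ± 0.21, -0.79 ± 0.18 and -1.62 ± 0.16 SE, while the chaperone Calr was higher in SCID-beige mice (0.74 ± 0.16 SE, adjusted p = 0.0035) and Hyou1 lower in BALB/c mice (-0.94 ± 0.15 SE, adjusted p = 0.0011).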

How the data were processed

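RNA was sequenced by Novogene on an Illumina NovaSeq. The authors deposited raw read counts per gene and the FPKM values computed from them (count divided by gene length and library total). The submitters' processing notes name STAR and mm10. The counting program and strand setting are not given in the sources used here. Symbols and positions came from GENCODE M21 (GRCm38), and identifiers without a match held at most 0.0969% of counts. Of the deposited sample columns, 0 were left unassigned.

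The 10 genes and all gene lists were chosen with earlier results of these data known. Named genes are those 10, in each pathway list the 2 largest rises and falls past the threshold with a mean of 5 CPM or more in the higher of both groups, and the 5 genes most like Asns. Groups came from the labels, and only the groups compared entered each fit. edgeR 4.0.16 in R 4.3.3 (TMM, default expression filter, robust quasi-likelihood F test) gave Benjamini-Hochberg adjusted p-values over all genes, called under 0.05, and was tested on simulated data. SE is the log2 fold change over the root of F. CPM used TMM over 24 libraries, adding a prior count of 2 before logs. No replicates were copies (chi-square per degree of freedom at least 4.96 over 38 pairs). Alternatives were DESeq2 1.42.0 and its size factors, filters, limma 3.58.1 on log2(FPKM + 1) or log2(FPKM + 0.1) with a minimum of 0.5 FPKM, a replicate block, 1 fit of all tumors and leaving libraries out. Same-numbered libraries deviated together across genes in culture (r of 0.184 to 0.491) and between lines in BALB/c mice (0.1 to 0.491). Between lines in SCID-beige mice r ran from -0.161 to 0.344, and between hosts it went down to -0.441. No source names a shared batch. The main fits, and the p-values from them, used no pairing, and the replicate block was an alternative in every comparison.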

Additional observations from a re-analysis of the deposited data

Results flagged for a closer look

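The line difference of Chac1 was larger in SCID-beige tumors than in culture by 1.19 on the log2 scale, in the interaction test given above (edgeR, adjusted p = 0.0272), and 5 of 5 D2.1 tumors lay above the D2A1 tumors. The level of Ddit3 in D2A1 tumor 2 of BALB/c mice, 14.6 CPM, lay apart from the other 3 (23.6 to 25.3 CPM) by more than Dixon's critical value. It was the only such value among 40 sets of tumors (10 genes in 4 groups), of which chance flags about 1 in 20, and without that tumor Ddit3 did not pass between the lines (adjusted p = 0.0783).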

How the results depend on the processing

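The 6 lower genes in BALB/c tumors, the lower Phgdh and at least 2 higher genes in SCID-beige tumors, and the absence of calls between hosts in D2A1 tumors held under every alternative run. In culture, DESeq2 had 3 lower genes, limma on either FPKM scale 4, and the replicate block 2 higher and 2 lower, and with single cultures left out there were 1 to 2 higher and 0 to 2 lower. The higher Ddit3 in BALB/c tumors became 0 to 1 higher genes when single tumors were left out, and 0 without tumors 1 and 4, an alternative chosen after seeing the data. The Chac1 interaction ran from 0 to 1 genes when single libraries were left out. The replicate block gave 3 higher genes in SCID-beige tumors, with Atf4 added (adjusted p = 0.0315). Outside these tumors and culture it changed no count of calls, and it gave a median of -0.78 between hosts in D2.1 tumors. The median correlation ran from 0.62 to 0.72. No direction of a called gene reversed, and FPKM gave the same 6 genes lowest in D2.1 BALB/c tumors among tumor groups as CPM did. The cause of these changes was not tested.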
